A study of Mus musculus with 2 samples.

Results

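Class 3 semaphorins are secreted guidance cues, and their receptors pair a ligand-binding neuropilin with a signalling plexin. The 10 genes described here are the 7 ligands *Sema3a* to *Sema3g*, the co-receptors *Nrp1* and *Nrp2*, and the plexin *Plxnd1*. They were taken as a fixed list of named genes, 10 of the 21755 protein-coding genes on the autosomes and X chromosome in GENCODE release M21. The rule that defines the list uses no measured value, although the genes were proposed with earlier results of these data known. Chromatin accessibility was read at every annotated transcription start with 1 kb on each side, and over a domain of the gene body with 50 kb on each side.

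Accessible chromatin was mapped by ATAC-seq, in which the transposase Tn5 inserts sequencing adapters into open DNA. Whole hearts of wildtype (WT) FVB embryos at E11.5 (49 to 51 somites) were dissected, and 2 replicates of 2 pooled hearts each were profiled. Both form a single group with no treatment, second genotype or other tissue, so no test between conditions was possible, and the values below are descriptions with both replicates given. The measurement is bulk, so fewer cells with an open site and less opening per cell cannot be told apart.

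In this pathway neuropilins hold the semaphorin, and plexins carry the signal that collapses or redirects the cytoskeleton of the responding cell. SEMA3E is the exception among the ligands, because it binds PLXND1 directly without a neuropilin. In the embryonic heart the pathway is best known for guiding cardiac neural crest cells into the outflow tract, where *Sema3c* attracts them and *Plxnd1* acts in endothelium, and for shaping pulmonary venous, coronary and lymphatic vessels and the innervation of the heart. Neuropilins are also co-receptors of vascular endothelial growth factors (VEGFs).

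The authors called peaks in each replicate separately with MACS2, which gave 118027 peaks in replicate 1 and 114783 in replicate 2. Fold enrichment, as the authors' caller wrote it, compares the reads piled up at a peak's summit with the average background of the genome, after adding 1 read to each. Total reads are not part of a peak list, but the steps of the fold enrichment gave a background of 2.68 reads in replicate 1 and 2.98 in replicate 2, so that a single read was worth 0.272 and 0.251 units, and no called summit held fewer than 9 reads. A shared region is the part of a replicate 1 peak covered by a replicate 2 peak, and there were 98924 of them. The tissue label was checked at the starts of marker genes. A shared region was found for 8 of 8 cardiomyocyte, 6 of 6 endocardial and endothelial, 4 of 4 epicardial, 4 of 4 mesenchymal and 4 of 4 blood markers, but for 1 of 3 skeletal muscle markers (*Myod1*) and 1 of 3 liver markers (*Ttr*). The share that each cell type of the whole heart has in the values below was not tested.

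The sequences below come from annotated starts and from distal summits of these genes. The first set gives the 100 bases before the outermost annotated start, in the direction of transcription, for the receptor with the highest start region (*Plxnd1*), both neuropilins, the ligand of neural crest attraction (*Sema3c*) and the ligand with the lowest value among those shown (*Sema3g*). Capitals mark matches to the motifs named further on.
Plxnd1, chr6:115995006-115995105, minus strand: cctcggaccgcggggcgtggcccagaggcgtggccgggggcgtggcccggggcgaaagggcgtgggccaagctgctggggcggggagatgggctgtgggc
Nrp2, chr1:62703185-62703284, plus strand: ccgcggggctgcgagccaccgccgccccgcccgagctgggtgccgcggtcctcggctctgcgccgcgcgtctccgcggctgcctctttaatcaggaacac
Nrp1, chr8:128358504-128358603, plus strand: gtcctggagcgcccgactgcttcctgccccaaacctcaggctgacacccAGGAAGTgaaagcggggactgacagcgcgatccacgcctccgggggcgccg
Sema3c, chr5:17574181-17574280, plus strand: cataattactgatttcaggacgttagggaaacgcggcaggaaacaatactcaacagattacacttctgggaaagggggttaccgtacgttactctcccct
Sema3g, chr14:31217760-31217859, plus strand: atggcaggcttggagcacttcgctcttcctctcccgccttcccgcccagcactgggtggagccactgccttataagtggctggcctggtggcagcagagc

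G and C made up 80% of this window at *Plxnd1*, 76% at *Nrp2*, 69% at *Nrp1*, 64% at *Sema3g* and 46% at *Sema3c*. It held 16 CpG dinucleotides at *Nrp2*, 11 at *Plxnd1*, 9 at *Nrp1*, 5 at *Sema3c* and 3 at *Sema3g*. The window is set by the annotated start and not by the summit of the open region. Within 100 bases of the summit of the highest start region, G and C made up 83.6% at *Plxnd1* and 81.6% at *Sema3c*. The same share was 68.2% at *Nrp1*, 67.2% at *Nrp2* and 59.2% at *Sema3g*. All coordinates are GRCm38 (mm10).

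The second set gives the mean summit and 50 bases on each side for the strongest distal region of 6 of the genes, on the plus strand. Distal means more than 1 kb from every annotated start of any gene.
Sema3d, intron side of exon 7, chr5:12507609-12507709: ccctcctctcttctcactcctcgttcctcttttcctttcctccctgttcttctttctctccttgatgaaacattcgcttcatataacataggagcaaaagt
Sema3c, intron, chr5:17584528-17584628: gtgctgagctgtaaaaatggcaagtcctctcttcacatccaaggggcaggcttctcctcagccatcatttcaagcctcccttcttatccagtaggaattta
Sema3a, 3′ flank, chr5:13629091-13629191: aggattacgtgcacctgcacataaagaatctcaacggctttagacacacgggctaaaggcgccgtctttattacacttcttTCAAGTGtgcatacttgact
Nrp2, intron, chr1:62800486-62800586: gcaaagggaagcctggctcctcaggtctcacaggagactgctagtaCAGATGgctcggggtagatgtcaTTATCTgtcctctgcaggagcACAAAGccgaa
Nrp1, intron, chr8:128361418-128361518: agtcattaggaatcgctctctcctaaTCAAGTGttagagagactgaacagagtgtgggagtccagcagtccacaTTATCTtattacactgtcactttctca
Sema3e, intron, chr5:14033297-14033397: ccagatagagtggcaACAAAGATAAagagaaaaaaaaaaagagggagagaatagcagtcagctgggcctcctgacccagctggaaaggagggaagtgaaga

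The windows of *Nrp2*, *Nrp1* and *Sema3e* each hold a GATA match, which in *Sema3e* overlaps a SOX match. The bases shown for *Sema3d* and *Sema3c* hold none of the motifs searched. Within 100 bases of the summit, *Sema3d* has a TEAD, a SOX and a FOX match, and *Sema3c* still has none.

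Every one of the 10 genes had a shared region at an annotated start. Over all protein-coding genes this share was 68.1%. Of the 58 distinct starts of the 10 genes, 41 (70.7%) had a shared region, beside 58.2% of all starts of protein-coding genes. The 20 regions at these starts had medians of 9.78 and 6.41 in replicates 1 and 2, below the 13.3 and 13.1 over all regions at starts, and several of the faint ones lay at starts inside the genes. The highest region of each gene had a median over the 10 genes of 20.5, as the mean of both replicates. This was below the 24.5 of the 14820 protein-coding genes with a region at a start, and above the 14.9 that results when the 6935 genes without one are set to 0.

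**Figure D1:**
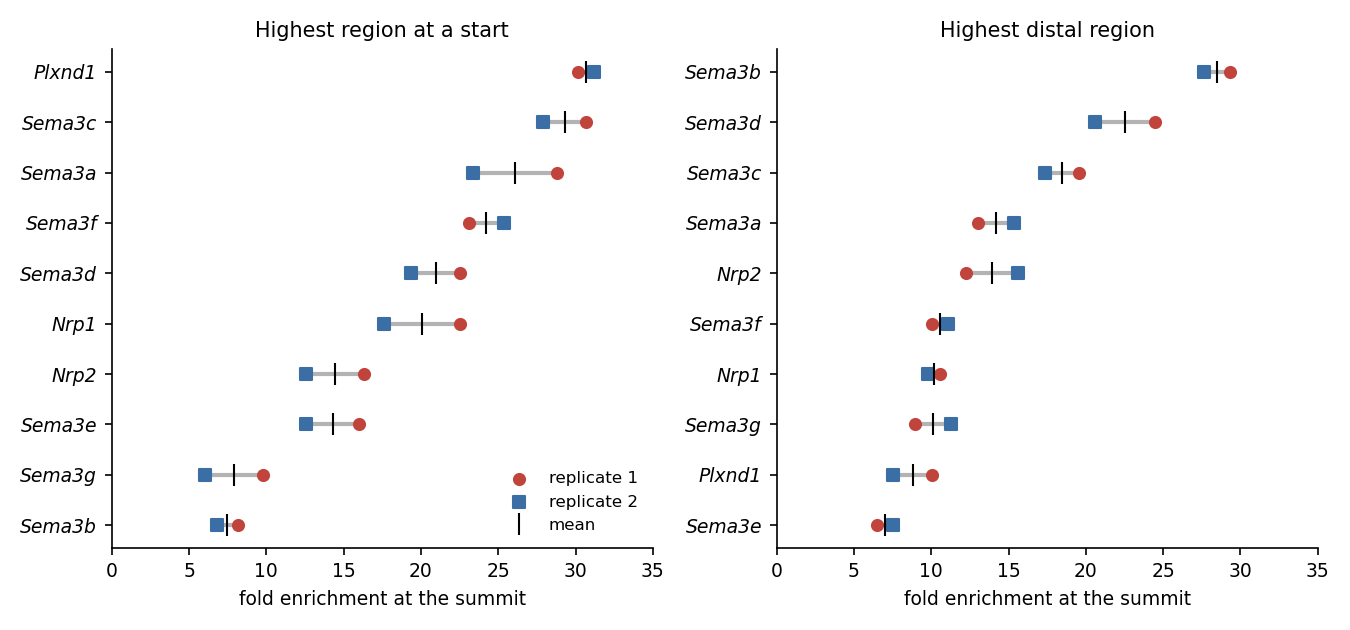
Fold enrichment at the summit of the highest shared region at a start (left) and of the highest distal region (right) of each of the 10 genes, with replicate 1 as circles, replicate 2 as squares and the mean as a tick. At starts *Plxnd1* and *Sema3c* lead and *Sema3g* and *Sema3b* are lowest, whereas *Sema3b* has the highest distal region, with 29.3 in replicate 1 and 27.7 in replicate 2.

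Among the starts, *Plxnd1* was highest with 30.7 ± 0.72 (SD, n = 2), followed by *Sema3c* with 29.3 ± 2.0, *Sema3a* with 26.1 ± 3.8 and *Sema3f* with 24.2 ± 1.6. *Sema3d* (20.95 ± 2.3) and *Nrp1* (20.1 ± 3.5) formed the middle, *Nrp2* (14.4 ± 2.6) and *Sema3e* (14.3 ± 2.4) came next, and *Sema3g* (7.91 ± 2.6) and *Sema3b* (7.47 ± 0.96) were lowest. A pair of genes was called separable where both replicates of the first lay above both of the second, and this held for 39 of the 45 pairs. Neighbours in the order were mostly not separable. *Plxnd1* overlapped *Sema3c*, *Sema3c* overlapped *Sema3a*, *Sema3a* overlapped *Sema3f*, and the pairs *Sema3d* and *Nrp1*, *Nrp2* and *Sema3e*, and *Sema3g* and *Sema3b* overlapped as well. The gaps that both replicates respected fell below *Sema3f*, below *Nrp1* and below *Sema3e*.

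*Sema3c*, the ligand that draws neural crest cells towards the outflow tract, had a region of 1729 bp over 4 of its 5 starts (chr5:17573638-17575366). Its fold enrichment was 30.7 in replicate 1 and 27.9 in replicate 2, with 112 and 110 reads at the summits. The remaining start, of a retained-intron transcript well inside the gene, had no region. Of the 15 regions in the domain, 14 were distal and 10 lay in introns. The strongest of these (chr5:17584242-17584830) sat 10.3 kb downstream of the outermost start, with 19.6 and 17.3. Others of the locus reached 10.6 and 9.55 at 64.0 kb and 9.51 and 8.04 at 115.5 kb. No other protein-coding gene overlaps the domain, and for 13 of the 14 distal regions the nearest protein-coding start was that of *Sema3c*.

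*Sema3d*, which guides endothelial cells and restrains aberrant growth of pulmonary veins, had a distal region as strong as its start. The start region of 2262 bp (chr5:12382959-12385220) had 22.5 and 19.4, and the distal region (chr5:12506971-12508280) had 24.4 and 20.6, so that the replicates of these sites overlapped and their order is not separable. This distal region lies 124.3 kb into the gene and covers the 129 bases of exon 7 of the coding transcripts with 17 and 18 exons, while its summit lies in the preceding intron. Within 100 bases of the summit, 57.7% of the sequence is soft-masked as repeats in the reference, beside a median of 3.48% over all distal regions. A region at 116.7 kb had 14.9 and 13.3. A further start, of a processed transcript near the 3′ end, had a faint region with 5.43 and 4.02.

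*Sema3a*, a repellent for axons that patterns the sympathetic innervation of the heart, had its strong start region far from its outermost annotated start. The outermost 3 starts, at 13125414 to 13125593 on chromosome 5, belong to noncoding transcripts and had only faint regions, the higher with 4.07 and 4.53. The strong region (chr5:13397962-13400174) lay 274.0 kb downstream, over 5 starts from 13398688 to 13399577, with 28.8 and 23.4. The protein-coding start at 13396784, which is also the start of the RefSeq promoter for this gene, had no shared region within 1 kb. A peak of replicate 2 alone covered it, with a fold enrichment of 4.27. Within the domain of 577.2 kb, 26 regions were shared and 19 were distal, 15 of them in introns. The highest distal region by mean was at the far 3′ side (chr5:13628789-13629381) with 13.0 and 15.3, followed in height by an intronic region (chr5:13526967-13527589) with 14.1 and 11.8. The order of these was opposite in the replicates.

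*Sema3e*, the direct ligand of PLXND1, was the sparsest of the 10 loci. Its start region (chr5:14025119-14026372) had 16.0 and 12.6, and its second start, of a retained-intron transcript, had none. The domain of 331.4 kb held 9 shared regions, of which 7 were distal. No distal region was high, the strongest (chr5:14033149-14033529) having 6.52 and 7.54 at 8.07 kb from the start. The whole 3′ portion of the gene beyond 86.3 kb, and the flank behind it, had no shared region.

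*Sema3f*, a repellent that acts mainly through NRP2, had a strong region at its outermost starts (chr9:107709365-107710486) with 23.1 and 25.4. Only 6 of its 12 starts had a region, and 3 of those were retained-intron starts that shared a single faint region with 5.43 and 3.27. Its 9 distal regions were weak apart from 2. The stronger by mean (chr9:107644510-107645013) had 10.1 and 11.1, and the other (chr9:107737988-107739336) had 11.4 and 8.55, upstream of the gene and nearest to a start of *Rbm5*.

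*Sema3b*, a ligand first studied as a candidate tumour suppressor, had faint starts and a strong distal region. Of its 14 starts, 9 had a region. At the outermost 4 protein-coding starts (107609193 to 107609229 on chromosome 9) the region had only 5.43 and 3.27, and the highest start region, at 2 retained-intron starts (chr9:107602065-107602484), had 8.15 and 6.79. The strongest distal region of all 10 loci (chr9:107612069-107613422) lay at -3.60 kb from the outermost start (negative distances are upstream), with 29.3 and 27.7. Within 100 bases of its summit 70.6% of the bases were G or C, with a CpG observed-to-expected ratio of 0.798, a CpG-rich composition found at 47.3% of all regions at starts and 2.401% of all distal regions. A further region at -10.2 kb, within *Gnai2*, had 15.8 and 11.8. *Gnai2*, which encodes a G protein subunit, has the nearest protein-coding start to the strongest region, at 3.22 kb. For none of the 10 distal regions of the domain was the nearest protein-coding start that of *Sema3b*.

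*Sema3g*, a ligand expressed in endothelium, had a single annotated start with a narrow region of 499 bp (chr14:31217530-31218028). It had 9.78 and 6.03, with the summits of both at the same base, -12 bp from the start. The same region is within 1 kb of a start of *Nisch*. The difference between replicates corresponded to 35 against 23 reads. The strongest distal region (chr14:31260326-31261068) had 8.96 and 11.3, and lay in *Dnah1*, 42.7 kb from the start. The 7 regions at starts of other protein-coding genes included one at *Bap1* and *Phf7* with 23.1 and 28.4 and one within 1 kb of starts of *Nisch* and *Tnnc1* with 17.7 and 18.9. *Tnnc1* encodes cardiac troponin C.

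*Nrp1*, the co-receptor for SEMA3A and for VEGF, had the widest start region of the 10 genes, 3504 bp (chr8:128356783-128360286), over all 4 of its starts. The summits, with 22.5 and 17.6, lay at -1238 and -1214 bp from the outermost start, so *Nrp1* alone lost its call when both summits had to lie within 1 kb of a start. The microRNA gene *Mir1903* lies within the same region. Of 14 distal regions 9 were intronic, 1 overlapped exon 2 and 4 lay in the 3′ flank. The strongest (chr8:128361261-128361766), 2.86 kb from the outermost start, had 10.6 and 9.80, and another at 13.4 kb had 10.3 and 8.80.

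*Nrp2*, the co-receptor for SEMA3F, known from venous and lymphatic endothelium, had a start region (chr1:62702840-62703799) of 16.3 and 12.6 over both starts. Its 21 distal regions were the most of any of the 10 genes. Some of them are pieces of a single wide peak, such as chr1:62706092-62707350 and chr1:62707508-62707940 under a replicate 2 peak of 1849 bp. Each piece was counted, so this rank depends on how peaks were split. The highest distal region (chr1:62800228-62800742), an intronic region 97.3 kb from the start, had 12.2 and 15.6, so its replicates and those of the start overlapped. Of the other distal regions, 4 had means from 10.4 to 11.8, at -38.1, 3.79, 125.0 and 157.6 kb from the outermost start. A pair of regions lay in exon 16, the last exon of 2 coding transcripts, and the stronger of these (chr1:62795587-62796005) had 7.06 and 6.79 with 67.7% G or C around its summit. The nearest protein-coding start was that of *Nrp2* for all 21.

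*Plxnd1*, the plexin for SEMA3E and a co-receptor of neuropilins in endothelium, had the highest start region of the 10 genes by mean (chr6:115993540-115995747) with 30.2 and 31.2, or 110 and 123 reads at the summits. This region covers the outermost start only. Its 2 starts with another region are of retained-intron transcripts near the 3′ end, where the highest region had 9.78 and 7.54. The 15 distal regions were moderate, the highest having 10.1 and 7.54. A region with these same values at 79.2 kb (chr6:115915628-115916028), within *Ift122*, and another at -11.9 kb tied for the highest. In the 13 kb before the start, 7 distal regions followed each other, and their fold enrichment spanned 3.26 to 10.1 (replicate 1) and 3.27 to 7.54 (replicate 2).

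**Figure D2:**
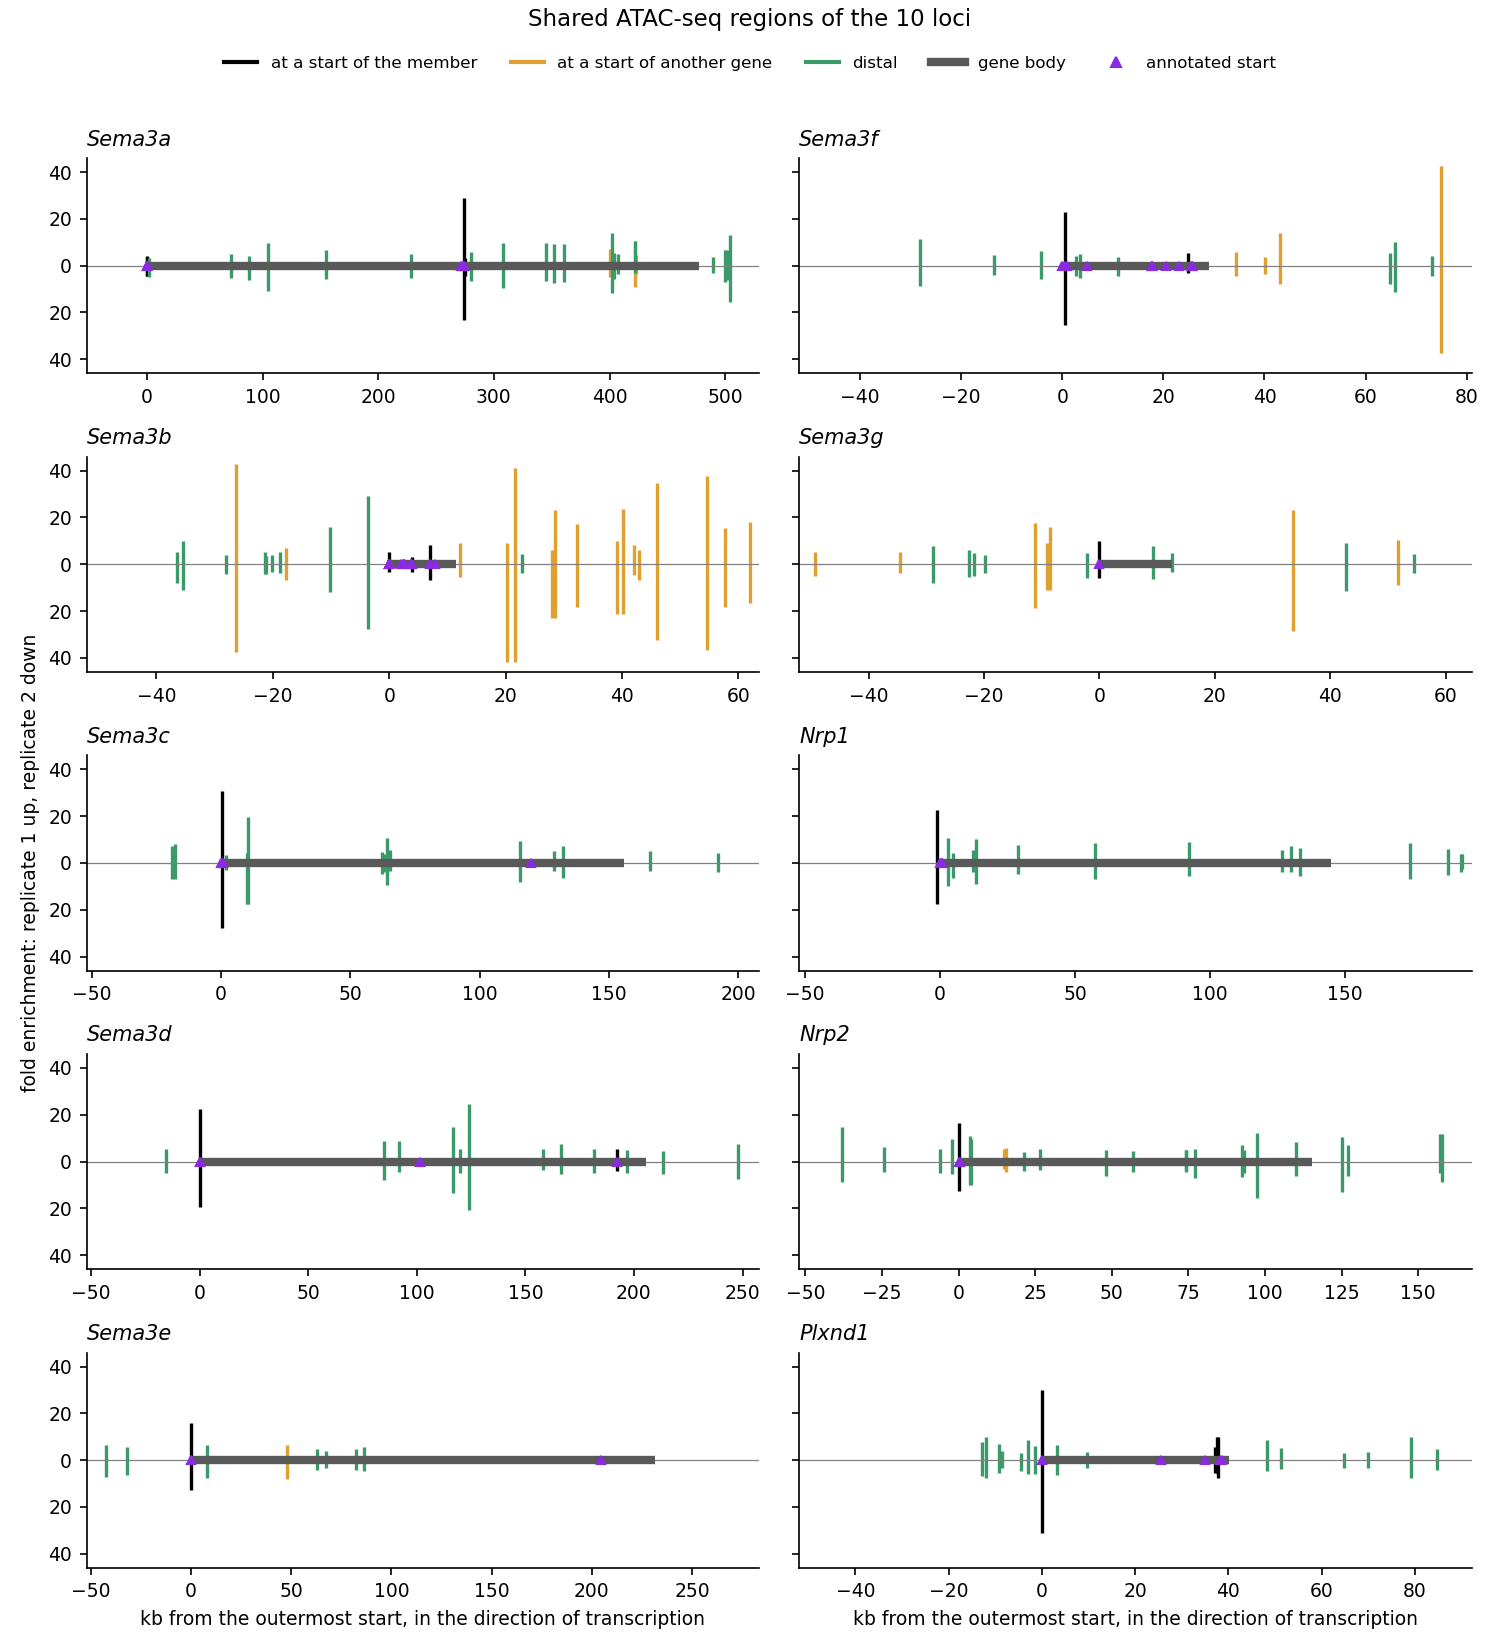
Shared regions of the 10 loci by distance in kb from the outermost start of each gene, with fold enrichment in replicate 1 drawn upwards and in replicate 2 downwards. Black lines are regions at a start of the member, orange lines at a start of another gene and green lines distal regions, with the gene body as a grey bar and annotated starts as triangles. *Sema3b* sits among strong starts of other genes, whereas *Sema3c*, *Sema3d* and *Nrp2* have distal regions and few or no other starts.

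The domains of the 10 genes held 179 shared regions in all, of which 20 lay at their own starts, 32 only at starts of other genes and 127 were distal. All 10 genes had a distal region, beside 83.0% of protein-coding genes. Of the 127, 64 were intronic, 4 overlapped an exon, 33 lay in the 5′ flank and 26 in the 3′ flank. The domains of *Sema3b* and *Sema3f* overlap, and 4 regions counted for both, so their values are not independent.

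Distal regions were denser around most of these genes than around the typical gene. The median was 6.35 per 100 kb over the 10 genes and 2.76 over all protein-coding genes, whose middle range ran from 0.934 to 5.16. *Plxnd1* had 10.7 per 100 kb, *Nrp2* 9.75, *Sema3b* 8.96, *Sema3g* 8.0005, *Sema3f* 6.98, *Nrp1* 5.72, *Sema3c* 5.47, *Sema3d* 3.93, *Sema3a* 3.29 and *Sema3e* 2.11. The last was below the median of all genes. Among genes with a body within a factor of 2 in length, the percentiles were 96.3 for *Plxnd1*, 93.5 for *Sema3b*, 93.3 for *Nrp2*, 90.2 for *Sema3g*, 86.0 for *Sema3f* and between 54.5 and 73.2 for *Nrp1*, *Sema3c*, *Sema3a* and *Sema3d*, with 28.3 for *Sema3e*. Gene density moved with this order. The domains of *Sema3b*, *Sema3g*, *Sema3f* and *Plxnd1* contain 10, 6, 4 and 4 other protein-coding genes, and those of the other 6 genes contain none. *Nrp2* stood apart in having both a high density and no other protein-coding gene. The part of neighbouring genes in these densities was not tested, and a region in a domain is not thereby assigned to the gene.

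**Figure D3:**
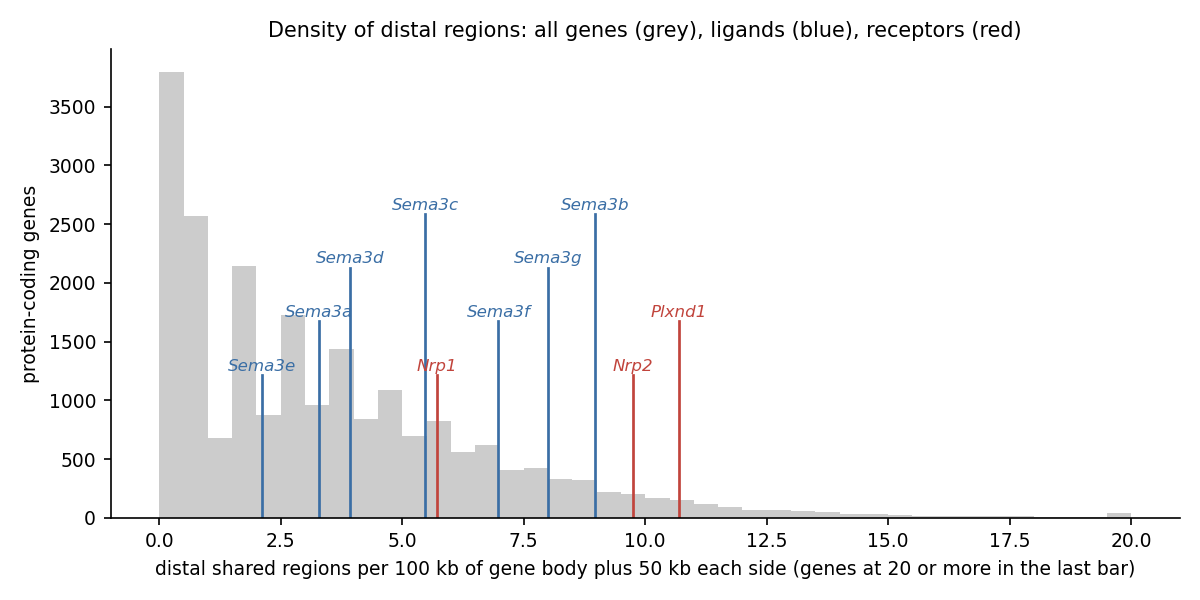
Histogram of distal shared regions per 100 kb of domain over the 21755 protein-coding genes (grey), with the 7 ligands in blue and the 3 receptors in red (line heights only separate the names). *Plxnd1* (10.7) and *Nrp2* (9.75) lie furthest to the right and *Sema3e* (2.11) furthest to the left.

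Of the 7 ligands, 6 share a chromosome with another, and *Sema3g* is alone on chromosome 14. *Sema3d*, *Sema3a*, *Sema3e* and *Sema3c* lie in this order on chromosome 5, and *Sema3b* and *Sema3f* are 72.3 kb apart on chromosome 9. The interval of 536.5 kb between *Sema3d* and *Sema3a* has no protein-coding gene and held 15 distal regions, or 2.80 per 100 kb. The interval of 422.7 kb between *Sema3a* and *Sema3e*, with 1 protein-coding gene, held 9, or 2.13 per 100 kb. *Sema3c* lies further away, and the 3318 kb between it and *Sema3e*, with 16 protein-coding genes, held 60, or 1.81 per 100 kb. The median over the domains of all genes was 2.76. The interval between *Sema3b* and *Sema3f* held 9 in a far shorter stretch, or 12.5 per 100 kb, together with 3 other protein-coding genes.

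The strongest distal region also separated the genes. *Sema3b* led, followed by *Sema3d* and *Sema3c*, and each of these was separable from every other gene. *Sema3a* and *Nrp2* came next with means of 14.2 and 13.9 and overlapped each other. *Sema3f*, *Nrp1*, *Sema3g* and *Plxnd1* had means from 8.80 to 10.6, and *Sema3e* had 7.03. Neighbours in the order overlapped from *Sema3f* down to *Sema3e*. In all, 37 of the 45 pairs were separable. By the mean of both replicates, *Plxnd1* had the highest start and *Sema3b* the lowest, though neither was separable from its neighbour in that order. The distal maximum of *Plxnd1* was not separable from the lowest, and that of *Sema3b* was the highest. Of the 127 distal regions, 11 (8.66%) reached a fold enrichment of 10 in both replicates, beside 11.4% of all distal regions. These 11 comprised 3 at *Nrp2*, 3 at *Sema3b* (1 of them shared with *Sema3f*), 2 at *Sema3a*, 2 at *Sema3d* and 1 at *Sema3c*, with none at *Nrp1*, *Plxnd1*, *Sema3e* or *Sema3g*.

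Composition and motifs of the distal regions were like those of distal regions in general. The median length was 365 bp beside 348 bp, the median G and C content within 100 bases of the summit was 49.3% beside 49.8%, and the share rich in CpG (an observed-to-expected ratio of at least 0.6 and at least 55% G or C) was 2.36% beside 2.401%. The 3 CpG-rich regions were the pair at *Sema3b* with 29.3 and 27.7 and with 10.1 and 11.1, and the exon 16 region of *Nrp2*. Windows were centred on the mean summit of both replicates, which lay outside the shared region for 16 of all 179 regions.

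Short sequence motifs of cardiac factor families were searched in the same windows, on both strands. The motif of GATA factors, searched for as AGATAA, was present in 25 of 127 distal regions, or 19.7%, beside 20.3% of all distal regions. An E-box, searched for as CATCTG, was present in 18.1% beside 17.6%. For SOX factors the letters ACAAAG were present in 16.5% beside 16.9%. For TEAD factors the letters GGAATG were present in 11.8% beside 16.5%, and for NKX2 factors TNAAGTG in 11.02% beside 13.0%. For T-box factors the letters AGGTGT were present in 9.45% beside 8.95%, for FOX factors TAAACA in 8.66% beside 12.2%, and for ETS factors AGGAAGT in 7.87% beside 7.76%. Of these, GATA and SOX matches can overlap, as in *Sema3e*. The longer MEF2 and CTCF motifs were present in 1 and 4 regions, or 0.787% and 3.15%, beside 1.95% and 2.85%. Each share over all distal regions lay inside the 95% Wilson interval of the share in the 127, which was 7.29% to 18.6% for TEAD and 4.91% to 14.8% for FOX. These intervals cover counting error only, and a match is not a bound site.

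**Figure D4:**
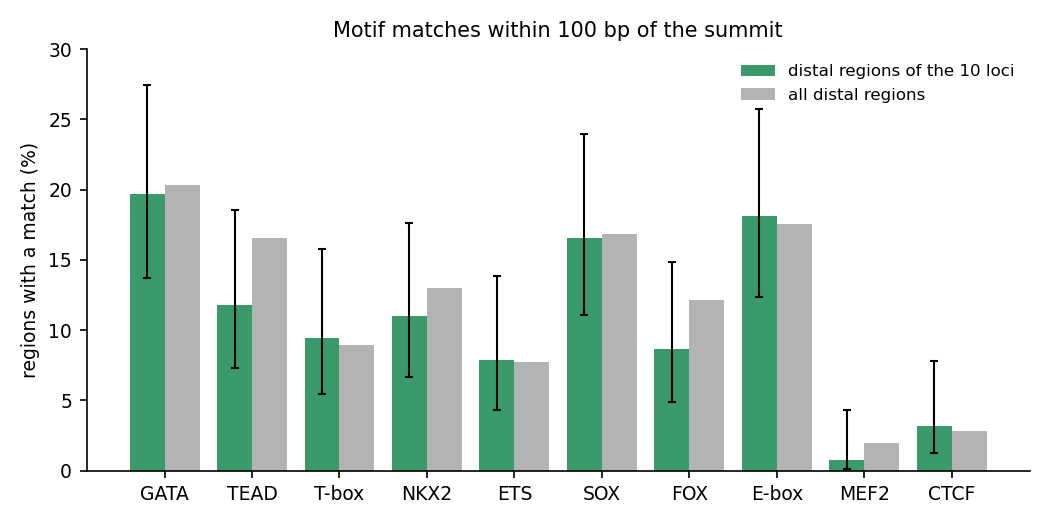
Percent of regions with a motif match within 100 bp of the summit, for the 127 distal regions of the 10 loci (green, with 95% Wilson intervals) and for all distal regions (grey). TEAD (11.8% beside 16.5%) and FOX (8.66% beside 12.2%) show the widest gaps, both inside the intervals.

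RefSeq promoters, from 250 bases before to 50 after the start, were given for 8 of the 10 genes, *Sema3b* and *Sema3f* not among them. A shared region overlapped 7 of these 8, beside 48.4% of all RefSeq promoters, the exception being *Sema3a*. CpG-rich promoters were open far more often in general, with 90.8% of those at or above an observed-to-expected ratio of 0.6 and 24.8% of those below. *Nrp2* (0.992), *Sema3c* (0.979) and *Plxnd1* (0.723) were above this limit. *Sema3e* (0.579), *Nrp1* (0.474), *Sema3d* (0.436) and *Sema3g* (0.310) were below it and had a region nonetheless, and *Sema3a* (0.162) had the lowest ratio.

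The replicates ranked the 179 regions alike, with a Spearman rho of 0.816 across regions, which share libraries and are not independent. Fold enrichment was higher in replicate 1 in 121 of them (67.6%), beside 66.2% of all shared regions. Only 6 regions differed by 2-fold or more, and in all 6 the summits lay over 500 bp apart, so the values are of different summits under a wide peak. In *Sema3c*, for example, a region of 19 bp had 4.07 in replicate 1 and took the value of 17.3 in replicate 2 from a peak of 707 bp that also covers the strongest intronic region.

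**Figure D5:**
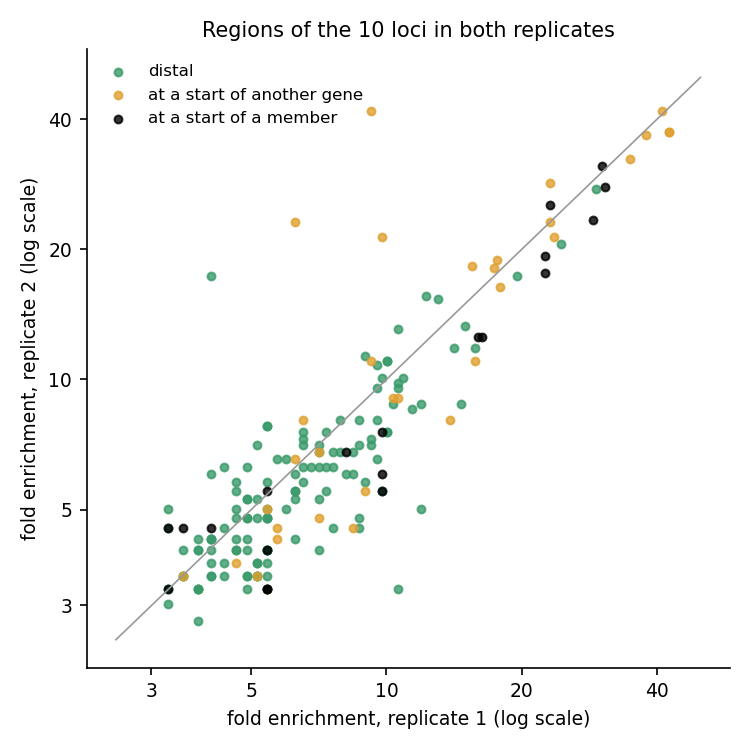
Fold enrichment of each shared region of the 10 loci in replicate 1 and replicate 2, both on log scales, with the line of equality. Points are coloured by place, and the 6 regions that differ by 2-fold or more lie furthest from the line.

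The families around these genes were open at starts as well. All 13 other semaphorins, all 8 other plexins, all 8 VEGF ligands and receptors and all 13 other guidance cues and receptors on fixed lists had a shared region at a start, beside 68.1% of protein-coding genes. The median of the highest start region was 16.7 for the other semaphorins, 17.0 for the other plexins, 12.7 for the VEGF genes and 16.8 for the other cues, compared with 20.5 for the 10 genes and 24.5 for all protein-coding genes with a region at a start. *Plxna2*, a plexin that signals for neuropilins, had 24.2 and 24.6, and *Plxna4* had 14.1 and 11.1. *Kdr*, the main VEGF receptor of endothelium, had 16.8 and 16.1, *Vegfa* had 19.3 and 17.6 and *Vegfc* had 29.1 and 25.4. The membrane-bound *Sema6a* had 39.1 and 36.2, both above the values of all 10 genes. Median distal density was 5.76 per 100 kb for the other semaphorins, 5.39 for the VEGF genes, 4.11 for the other cues and 3.93 for the other plexins, all above the 2.76 of all genes.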

How the data were processed

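ATAC-seq peak lists of 2 WT heart replicates were used. The authors trimmed single-end reads of 50 bp with Trim Galore 0.6.6 and Cutadapt, aligned them to GRCm38/mm10 with Bowtie2 2.4.2, removed duplicates and poorly mapped reads with SAMtools 1.12, and ran MACS2 per replicate without local background. Open sites in repeats may therefore be under-represented. The deposited lists give fold enrichment (a ratio to background), −log10 p-values and −log10 q-values at the summit, and a score, which the authors' caller sets at 10 times the −log10 q-value. The largest p-values present were 0.000476 and 0.00104, stricter than the stated limit.

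Shared regions came from bedtools 2.31.1 (intersect of at least 1 bp, then merge), and starts from GENCODE M21. Sequence was read from the GRCm38 reference and promoters from the RefSeq table of GRCm38.p6. The code was tested on simulated peaks and motifs. Python 3.11.15, pandas 2.3.3, SciPy 1.17.1, pysam 0.24.0 and Matplotlib 3.10.9 were used. The 10 genes and the lists were chosen with earlier results of these data known. The text names, for each gene, its starts, its highest start region and its highest distal regions, and genes of the fixed lists; other regions and genes were named after their values were seen. No counting interval was set on fold enrichment. Read totals are unknown. The result of 1 marker list is not reported here.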

Additional observations from a re-analysis of the deposited data

Results flagged for a closer look

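Peaks called in a single replicate entered no count of the report, which gives 1 of them, at a start of *Sema3a*. Of 41 such peaks in replicate 1 and 27 in replicate 2 within the 10 domains, 3 had a −log10 q-value above 10 and are listed for that reason. At *Sema3a*, replicate 1 alone had peaks within the gene at chr5:13506011-13506403 with a fold enrichment of 6.52 and at chr5:13523110-13523437 with 6.25. At *Sema3e*, replicate 2 alone had a peak at chr5:14048637-14049021 with 6.54, close to the 7.54 of the highest shared distal region of that gene in the same replicate. There were no control samples to set these against.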

How the results depend on the processing

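All 10 genes kept a region at a start in 8 of 9 alternatives, and 9 did when both summits had to lie within 1 kb. With peaks of q at most 1e-10 in each replicate, 27 of 58 starts, 83 regions and 50 distal regions were left, and the median distal density was 2.19 per 100 kb, beside 0.909 over all genes. With starts of protein-coding transcripts only, 22 of 31 had a region, and the highest start region of *Sema3b* fell to a mean of 4.35. The share over all starts of protein-coding genes was not computed for either of these settings. The median density was 4.99 where peaks had to cover 50% of each other (beside 2.38 over all genes). With flanks of 100 kb it was 5.20 (beside 2.98 over all genes). With replicate 1 left out it was 6.85 (beside 3.43 over all genes), and with replicate 2 left out 7.52 (beside 3.46). Counted in base pairs it was 2659 bp per 100 kb. No paired analysis was possible because both samples belong to a single group. Motif shares left their Wilson intervals in 14 of 20 alternatives, which searched the whole region or 50 bp on each side of the summit. A longer or shorter window changes the share by itself. The share over all distal regions was not recomputed for these windows, so the comparison with it was not tested there. Fold enrichment from few summit reads is coarse. No summit below 9 reads was called, and a start without a shared region could still hold a peak in 1 replicate.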
